A study of Mus musculus with 1483 samples.

Results

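The cells described here are the Sst and Pvalb interneurons that 1 enhancer virus labelled side by side in the same mice. They were chosen by 2 measured values. A cell of genotype label eHGT_064h was taken as an Sst cell when Sst was at 300 CPM (read counts scaled to a fixed total per cell) or more and Pvalb was under 300 CPM, and as a Pvalb cell when the reverse held. This gave 91 Sst and 76 Pvalb cells, 167 of the 185 eHGT_064h cells and of the 1483 cells in all. Another 13 cells passed both limits and 5 passed neither. The 4 mice, named here as in the labels, gave 24 Sst and 16 Pvalb cells (MouseID-468100), 20 and 20 (MouseID-492045), 22 and 19 (MouseID-497550), and 25 and 21 (MouseID-498750), so that each mouse supplied both sides of the comparison.

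The study tested candidate enhancers in viral vectors in the mouse brain, and the cells come from tissue labelled VISp (the primary visual area of the cortex) of mice labelled C57Bl/6J, whose age is not given in the sources used here. An adeno-associated virus carried 1 enhancer and the gene of a yellow fluorescent protein, SYFP2. Fluorescent cells were sorted singly and their polyadenylated RNA was sequenced with SMARTer v4 chemistry. eHGT_064h is the label of 1 such enhancer, and all cells of both sets carried it; the sort keeps only fluorescent cells, so the shares of Sst and Pvalb cells describe what was sorted with this virus and not the cortex.

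Sst and Pvalb cells are 2 large groups of cortical GABAergic interneurons that share an origin in the medial ganglionic eminence of the embryo. Many Sst cells, among them the Martinotti cells, send inhibitory synapses to the dendrites of pyramidal cells and release the peptide somatostatin. Pvalb cells, mostly basket cells, contact the soma, fire brief spikes at high rates, express the calcium buffer parvalbumin and often carry a perineuronal net.

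The stretches of DNA just before an annotated transcript start of Sst and of Pvalb are shown because these are the genes that chose the cells. RefSeq's span of Sst runs on to position 23891342, past this stretch, and Pvalb has another listed start within its span. Both are from RefSeq on GRCm38.p6, the minus strand, 5′ to 3′, 250 bases each, at chr16:23890845-23891094 and chr15:78206401-78206650. Capitals mark the cAMP response element TGACGTCA, which reads the same on both strands.
Sst: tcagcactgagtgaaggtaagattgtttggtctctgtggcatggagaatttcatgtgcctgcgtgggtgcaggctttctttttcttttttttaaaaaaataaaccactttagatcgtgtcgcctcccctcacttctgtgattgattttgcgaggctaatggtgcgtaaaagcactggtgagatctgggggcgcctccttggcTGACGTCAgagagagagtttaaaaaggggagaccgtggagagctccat
Pvalb: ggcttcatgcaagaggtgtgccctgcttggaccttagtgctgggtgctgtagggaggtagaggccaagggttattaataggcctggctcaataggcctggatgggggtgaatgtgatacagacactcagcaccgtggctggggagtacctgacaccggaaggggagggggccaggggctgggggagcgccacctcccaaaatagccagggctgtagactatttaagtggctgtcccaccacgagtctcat
In the Sst stretch the element begins 48 bases before that start. It occurs in 1.77% of the 27025 genes with such a stretch, and in 278 of the 7961 among them that were tested below (3.49%). Of the genes found below to be higher in Sst cells, 7 of 437 with a stretch held it (1.6%), and of those higher in Pvalb cells, 13 of 361 (3.6%). Among the genes named below, those with the element were Pdlim3 and Dusp1. These are matches of letters, not sites of binding.

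Expression levels separated the classes with almost no cells near the limits on the Sst axis. In the Sst cells Sst ranged from 543.9 to 47825 CPM with a median of 11463, and in the Pvalb cells it was above 0 in 5 of 76, at most 34.64 CPM. Pvalb ranged from 319.2 to 4503 CPM in the Pvalb cells, with a median of 2403. In the Sst cells Pvalb was less sharply absent: 49 of 91 had it above 0, and the 3 highest were at 298.6, 207.4 and 203.6 CPM. The 3 lowest Pvalb values among cells that passed both limits were 313.5, 320.9 and 354.3 CPM. These values chose the cells and were not tested.

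**Figure D1:**
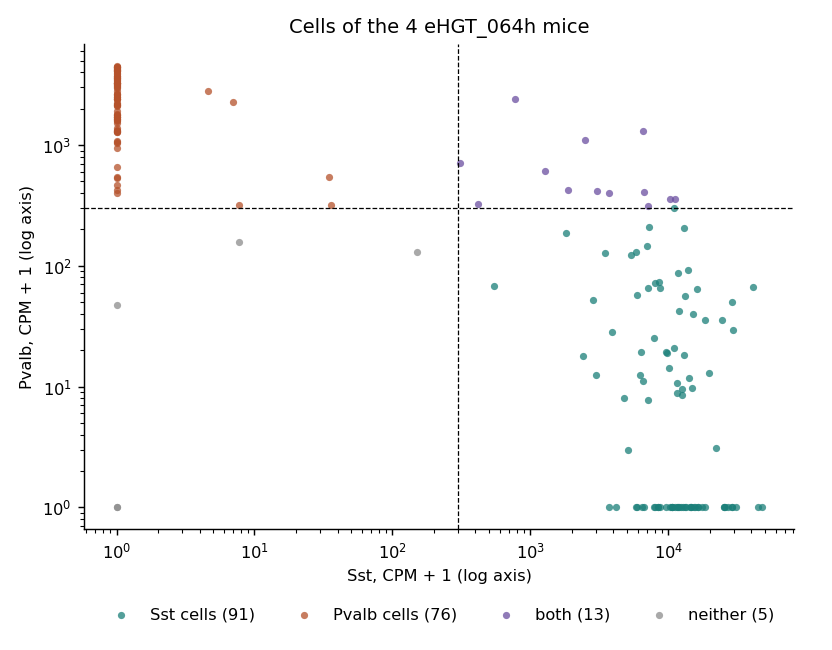
Each point is 1 cell of the 4 eHGT_064h mice, with Sst on the horizontal and Pvalb on the vertical axis as CPM + 1 on log axes, and dashed lines at the limits of 300 CPM. The 91 Sst cells spread downward from the Pvalb limit to 0, whereas the 76 Pvalb cells stand at or near 0 for Sst.

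Elfn1, a synaptic adhesion protein of Sst cells, and Syt2, the fast calcium sensor of release in Pvalb terminals, are the other markers that came with the choice of these cells and carry no test in these mice. Elfn1 was above 0 in 84 of 91 Sst cells and 13 of 76 Pvalb cells. Syt2 was above 0 in 5 of 91 Sst cells and 57 of 76 Pvalb cells. Each marker was thus found in most cells of its set, but not in all of them, and in some cells of the other set. Because both markers came with the choice of the cells, these shares cannot test the labels. In the 6 other mice described below, which the choice did not use, Elfn1 was higher in Sst cells (78.8 against 5.47 CPM, adjusted p = 2.87e-05) and Syt2 in Pvalb cells (104 against 1.69 CPM, adjusted p = 3.14e-05), each in 6 of 6 mice.

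All 167 cells had Gad1 or Gad2, the enzymes that make GABA, at 10 CPM or more. Slc17a7, which loads glutamate into the vesicles of excitatory neurons, reached 10 CPM in 6 Sst and 5 Pvalb cells and 100 CPM in none. Reads per eHGT_064h cell ran from 80918 to 794018 with a median of 523857, at which 1 read is 1.91 CPM, and reads per mouse from 21830323 to 26844232. The reads carry no molecular identifiers, so they are not independent molecules. The median number of detected genes was lower in Sst than in Pvalb cells in 4 of 4 mice. The mean difference, Sst minus Pvalb cells, was -402.6 genes (SD 136.3) and, with each cell thinned to 80000 reads, -189.8 (SD 115.4). With 4 mice the two-sided exact permutation test cannot go below p = 0.13, which is the value both reached, and the part of this difference in the results below was not tested. Median reads per cell were higher in Sst cells in 2 of 4 mice.

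Markers of other cell types were low in most of these cells. Every marker of the lists for microglia (6 genes) and endothelium (5 genes) had a mean under 1 CPM in both sets, as had 4 of 5 mural genes, 3 of 4 genes of oligodendrocyte precursors, 6 of 8 glutamatergic genes and the defining astrocyte genes Aqp4 and Gfap. The summed glutamatergic list ran from 15.25 to 26.99 CPM over the mice in Sst cells and from 13.6 to 45.29 in Pvalb cells. The summed astrocyte list was higher in Pvalb cells (159.3 to 262.2 CPM over the mice) than in Sst cells (27.99 to 90.21). Of its 6 genes 3 were higher in Sst cells, and nearly all of the difference was Aldoc, a glycolytic enzyme that neurons can also express, at 149.8 to 255.4 CPM in Pvalb cells. The list for Vip, Lamp5 and Sncg cells summed to 124.4 to 210.4 CPM in Sst cells and 32.19 to 64.34 in Pvalb cells, with Vip, Adarb2, Sncg, Prox1 and Htr3a under 1 CPM and Cnr1 and Npas1 making up most of it. The part of either list in the results below was not tested. The 6 oligodendrocyte genes summed to 949.7 CPM in the Sst cells of MouseID-468100. This came from 1 cell with 22064 CPM of them, which also had Sst at 25774 CPM and the most detected genes of any eHGT_064h cell, 10931. Without that cell and 1 Pvalb cell at 681.6 CPM, the Sst cells of the 4 mice were at 25.42 to 42.97 CPM and the count of genes given next was 1101 in place of 1104.

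The main comparison took the mean CPM of each gene over the Sst cells and over the Pvalb cells of each mouse and compared them within the mouse, by limma on log2(mean CPM + 1). A gene was called when its Benjamini-Hochberg adjusted p was under 0.05 and its log2 difference at least 1 in size. Of 10543 genes tested, 1104 were called (10.5%), 601 of them higher in Sst cells (5.7%) and 503 higher in Pvalb cells (4.77%). Fold differences on this scale understate those of low genes. When each cell's value was logged before averaging, 1602 genes were called and the split turned, from 54.4% higher in Sst cells to 38.8%, and the median over all genes moved from -0.0155 to -0.117. In 981 of the called genes the 4 Sst means and the 4 Pvalb means did not overlap, which held for 23% of all genes tested. Within library prefix letters, 1109 genes were called in the G mice (MouseID-468100 and MouseID-492045) and 969 in the J mice (MouseID-497550 and MouseID-498750).

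**Figure D2:**
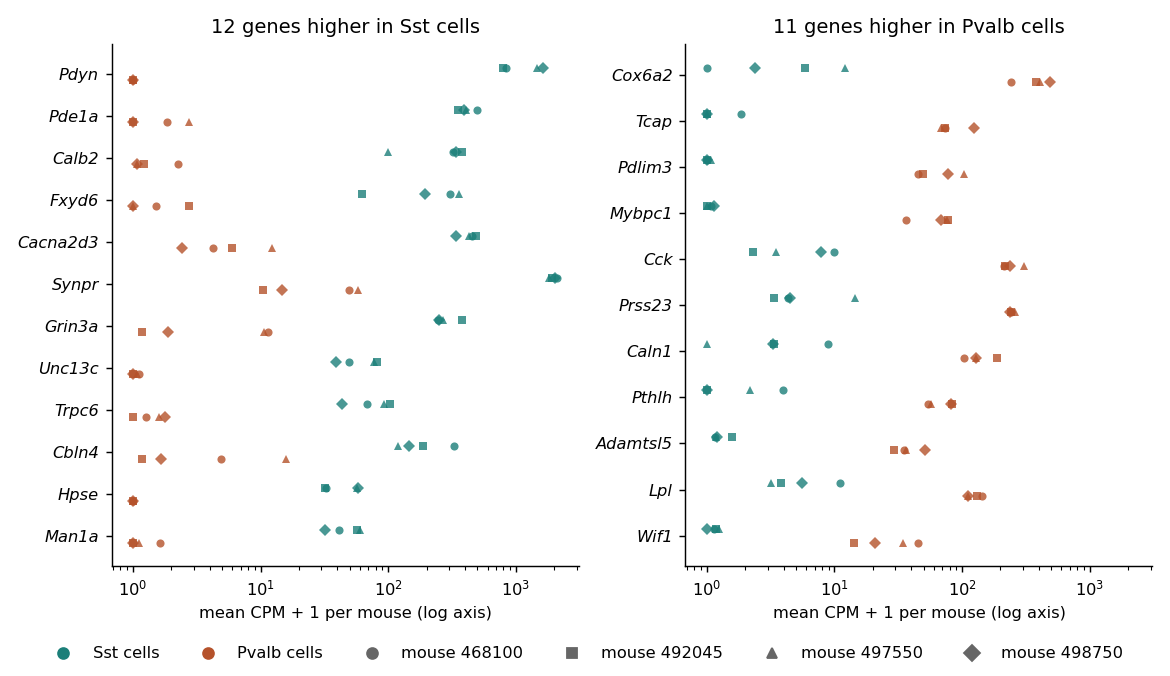
Points are mean CPM + 1 per mouse on a log axis for the 12 genes that most favoured Sst cells and 11 of the 12 that most favoured Pvalb cells, Sst cells in teal and Pvalb cells in brown, with 1 symbol per mouse. The 4 Sst means and the 4 Pvalb means do not overlap for any of these genes, by the rule that chose them.

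The genes that most favoured Sst cells included a peptide precursor, signalling enzymes and synaptic proteins. Per-mouse means are given in the order MouseID-468100, MouseID-492045, MouseID-497550, MouseID-498750. Pdyn, the precursor of dynorphin (chr2:129686549-129699938 in RefSeq on GRCm38.p6), averaged 831, 795, 1460.4 and 1626 CPM in Sst cells and 0 in the Pvalb cells of all 4 mice, at least 15921-fold higher against a floor of 3 reads over all Pvalb cells (0.074 CPM). Its reads were 61525 in Sst cells and none among the 40565794 of the Pvalb cells. The floor covers counting error of pooled reads only, not the spread between cells or mice, and reads are not independent molecules. Hpse, the heparan sulfate cleaving enzyme heparanase, was at 31.8, 31, 56.4 and 56.7 CPM in Sst cells and 0 in Pvalb cells, at least 594-fold higher. Both genes were thus present in the Sst cells of every mouse and met no read in the other set. Both passed the filter on low values (5 CPM in at least 4 of the 8 means) through Sst means alone, which fixed their direction.

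Pde1a, a calcium- and calmodulin-activated phosphodiesterase, averaged 411 CPM (SD 62.2, n = 4 mice) in Sst cells and 0.656 (SD 0.843) in Pvalb cells, a log2 difference of 8.09 (SE 0.25, adjusted p = 7.4e-10). Calb2, which encodes calretinin, was at 318, 376, 99.2 and 340.0 CPM against at most 1.25, a difference of 7.56 (SE 0.31, adjusted p = 7.26e-09). Its lowest Sst mean, in MouseID-497550, was still far above the Pvalb cells. Pde1a and Calb2 also passed the filter on low values through Sst means alone, which fixed their direction. Synpr, a synaptic vesicle protein, had 1967 CPM (SD 126) in Sst cells and 32 (SD 23.8) in Pvalb cells, a log2 difference of 6.26 (adjusted p = 0.00327) that was 6.48 in the 2 G mice alone (adjusted p = 0.108). Cacna2d3, an auxiliary calcium channel subunit, was at 428 CPM (SD 65.0) and 5.24 (SD 4.29), a log2 difference of 6.34 (SE 0.26).

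The levels of others of these 12 were as follows. Fxyd6, a regulator of the sodium pump, ranged from 61.7 CPM in MouseID-492045 to 357 in MouseID-497550 in Sst cells and did not exceed 1.73 in Pvalb cells. It reached 10 CPM in 35 of 91 Sst cells. Unc13c, a vesicle priming protein, had 60.7 CPM (SD 20.8) in Sst cells and 2 reads in all Pvalb cells. The cation channel gene Trpc6 and the mannosidase gene Man1a had 75.9 CPM (SD 27.1) and 46.8 CPM (SD 13.2) in Sst cells and 0.414 and 0.188 in Pvalb cells. Grin3a and Cbln4 are described with their groups below.

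Among the 12 genes that most favoured Pvalb cells, the difference was largest for Cox6a2. Cox6a2, the muscle-type isoform of a cytochrome c oxidase subunit (chr7:128205435-128206366), averaged 241, 376, 405 and 491 CPM in Pvalb cells and 0, 4.91, 11.2 and 1.38 in Sst cells, a log2 difference of -6.66 (SE 0.45, adjusted p = 1.12e-05). Tcap, which encodes a protein of the sarcomeric Z-disc, was at 83.7 CPM (SD 26.2) against 0.216 (SD 0.433). Pdlim3, another Z-disc protein, was at 67.7 CPM (SD 26.8) with 1 read in all Sst cells, and Mybpc1, a myosin-binding protein, at 63.4 CPM (SD 19.1) with 3 reads.

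The peptide genes Cck and Pthlh followed the same direction. Cck, the precursor of cholecystokinin, was at 210.3, 216, 305 and 235 CPM in Pvalb cells and between 1.31 and 8.99 in Sst cells. Pthlh, which encodes parathyroid hormone-related protein, was at 68.2 CPM (SD 15.9) against 1.04 (SD 1.41). The serine protease gene Prss23 had even Pvalb means, 236 to 259.6 CPM, against 5.65 (SD 5.19). Lipoprotein lipase (Lpl) was at 123 CPM (SD 15.7) and 4.92 (SD 3.62). Others were the calneuron gene Caln1 (136 and 3.15 CPM), Adamtsl5 (37 and 0.281) and the Wnt inhibitor Wif1 (27.7 and 0.142).

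**Figure D3:**
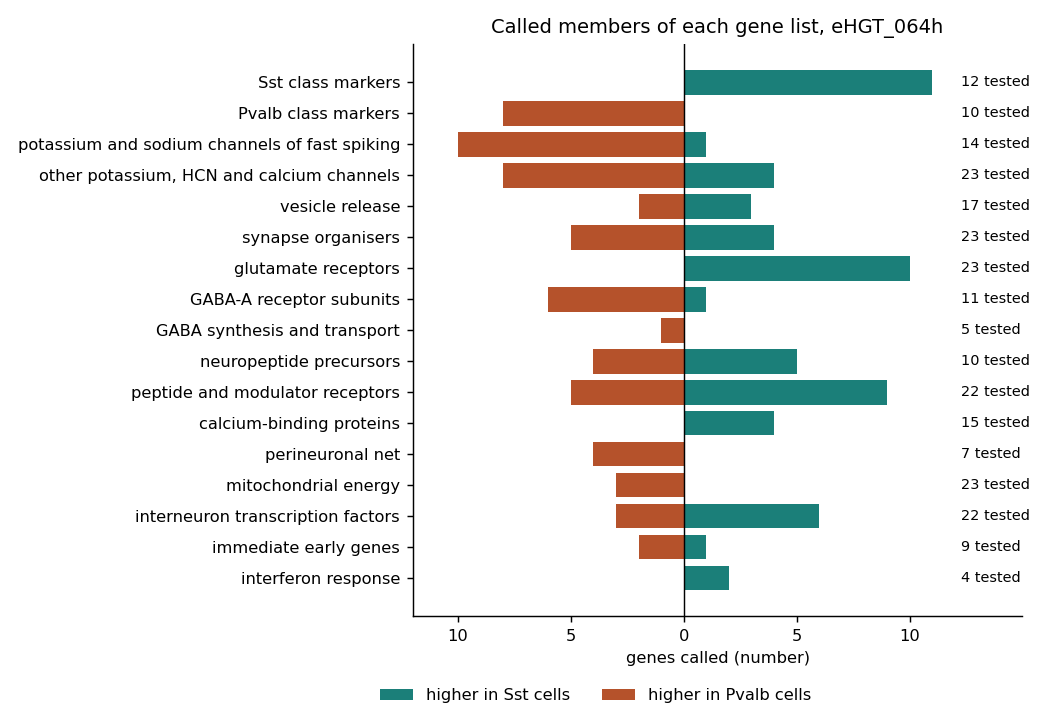
Bars count the called members of each gene list, to the right where they were higher in Sst cells and to the left where higher in Pvalb cells, with the number tested at the edge. Glutamate receptors and calcium-binding proteins had calls in the Sst direction alone (on logged cell values, in both), and perineuronal net and mitochondrial genes in the Pvalb direction alone. The list of calcium-binding proteins leaves out Pvalb, which chose the cells. Of all genes tested, 5.7% were called higher in Sst cells and 4.77% in Pvalb cells.

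Lists of textbook class markers split by class. Of 12 tested Sst class markers 11 were called higher in Sst cells and none in Pvalb cells, with a median log2 difference of 4.08, or 5.19 with Hpse, Crhr2 and Syndig1l, which had no read in Pvalb cells, at their lower bound, against -0.0155 over all genes. The exception was Etv1, at 49.2 CPM (SD 32) and 54.5 (SD 9.26). Of 10 tested Pvalb class markers 8 were called higher in Pvalb cells, with a median of -2.16. Ppargc1a and Akr1c18 were not called, at log2 differences of -0.88 and -0.47. Chodl, Myh8, Chrna2, Vipr2 and Gpr149 fell below the filter on low values. These markers were known from both classes, so their direction is not independent of the labels. Over all genes tested, 5.7% were called higher in Sst cells and 4.77% in Pvalb cells.

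Channels of fast spiking mostly favoured Pvalb cells. In the list of potassium and sodium channels, 10 of 14 tested were called higher in Pvalb cells and 1 in Sst cells, with a median of -1.04. The shares over all genes tested were 4.77% and 5.7%. Kcnc1, a Kv3 subunit that repolarises brief spikes, was at 524, 701, 543 and 494 CPM against 149, 193, 171 and 119.8 (log2 difference -1.84, SE 0.07). Kcnab3, an auxiliary subunit of Kv1 channels, was at 303 CPM (SD 22.8) and 83.6 (SD 12.7). The others included Kcnc2, Kcna1, Kcnab1, Kcns1, Kcns3 and Scn1a, and with Sst and Pvalb left out of each cell's total the count was 8 in place of 10. Kcnc4, the single member called in the Sst direction, was also a Kv3 gene. Its means were 30.1, 6.15, 22 and 11.4 CPM in Sst cells and 7.45, 0, 0 and 0.6251 in Pvalb cells, which overlap, and in the other mice it was higher in Sst cells in 4 of 6.

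Other potassium, HCN and calcium channels went both ways, with 8 of 23 called higher in Pvalb cells and 4 in Sst cells and a median of -0.224. The shares over all genes tested were 4.77% and 5.7%. The A-type current genes were divided. The pore subunit gene Kcnd3 was at 42 CPM (SD 2.94) in Sst cells and 4.01 (SD 3.87) in Pvalb cells, whereas Kcnip2, which encodes a partner of Kv4 pores, was at 18.6 (SD 7.29) and 201 (SD 59.9). Kcnh7, a channel of the ether-à-go-go related family, was at 29.4 CPM (SD 17.8) in Sst and 180.2 (SD 42.9) in Pvalb cells.

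At the release site, complexins, which clamp and promote vesicle fusion, took opposite directions. Cplx2 was at 35.8, 65.3, 74.4 and 62.7 CPM in Sst cells and 3.45, 1.76, 5.40 and 2.59 in Pvalb cells (log2 difference 3.84, SE 0.30, adjusted p = 1.08e-06). Cplx1 was at 1359 CPM (SD 71.3) in Sst cells and 2995 (SD 280.0) in Pvalb cells (difference -1.14, SE 0.04, adjusted p = 8.52e-10). Cplx1 was thus abundant in both sets, and Cplx2 fell to a few CPM in Pvalb cells. Vamp1, the vesicle SNARE of fast synapses, was at 119 CPM (SD 13.8) and 339 (SD 48.8). In the list, 3 of 17 tested release genes were called higher in Sst cells and 2 in Pvalb cells, with a median of 0.285. The shares over all genes tested were 5.7% and 4.77%.

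Synapse organisers were called in both directions too, 4 of 23 in Sst cells and 5 in Pvalb cells (against 5.7% and 4.77% of all genes tested). Their median was -0.237. On logged cell values the Pvalb count was 9. Cbln4, a secreted bridge between neurexins and their partners, was at 324, 187, 118 and 144 CPM in Sst cells and 3.90, 0.184, 14.9 and 0.657 in Pvalb cells. Lrrtm1, a postsynaptic adhesion protein, was at 85.5 CPM (SD 35.6) and 13.8 (SD 4.06). Erbb4, the neuregulin receptor through which pyramidal cells recruit Pvalb cells, was at 1002, 1471, 895 and 719 CPM in Pvalb cells and 106, 116, 92.9 and 52.4 in Sst cells (difference -3.47, SE 0.09, adjusted p = 1.99e-10). Cntnap4, a contactin-associated protein, was at 185 CPM (SD 50.9) and 49.4 (SD 16.3). Mice ranked alike on both sides for Erbb4, with MouseID-498750 lowest and MouseID-492045 highest.

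Receptors for the main transmitters diverged. Of 23 glutamate receptor genes and their auxiliary subunits, 10 were called higher in Sst cells and none in Pvalb cells (against 5.7% and 4.77% of all genes tested). Their median was 0.704. Under the average of logged cell values 3 members were also called higher in Pvalb cells. Grin3a, an NMDA receptor subunit that lowers calcium entry, was at 243, 379, 269 and 248 CPM in Sst cells and 10.5, 0.183, 9.56 and 0.876 in Pvalb cells, a log2 difference of 6.11 (adjusted p = 0.00293) that was 6.36 in the 2 G mice alone (adjusted p = 0.151). Cacng5, an AMPA receptor auxiliary subunit, was at 22.3 CPM (SD 4.72) in Sst cells and had 1 read in all Pvalb cells. It reached 10 CPM in 31 of 91 Sst cells.

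Of 11 GABA-A receptor subunits, 6 were called higher in Pvalb cells and 1 in Sst cells (against 4.77% and 5.7% of all genes tested). Their median was -1.19. Gabrd, the δ subunit of receptors outside synapses, was at 339, 349, 401 and 387 CPM in Pvalb cells and 31.4, 56.4, 84.4 and 102 in Sst cells (log2 difference -2.54, SE 0.20, adjusted p = 1.26e-05). Gabra2 went the other way, at 31.1 CPM (SD 4.94) in Sst cells and 7.26 (SD 3.35) in Pvalb cells.

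Most peptide precursors passed the test: of 10 tested, 5 were called higher in Sst cells (Npy, Penk, Pdyn, Crh and Pnoc) and 4 in Pvalb cells (Tac1, Cck, Cartpt and Pthlh), with a median of 0.897 that turned to -0.257 when cell values were logged before averaging, where the counts were 3 and 4. Cort, the remaining one, was at 419.6 CPM (SD 182) and 332 (SD 88.7). Penk, the precursor of enkephalins, was at 123, 38.8, 59.2 and 75.4 CPM in Sst cells and at most 2.83 in Pvalb cells. It reached 10 CPM in 21 of 91 Sst cells (23.1%). Receptors for peptides and modulators gave 9 of 22 in the Sst and 5 in the Pvalb direction, with a median of 0.918. For both lists, precursors and receptors, the shares over all genes tested were 5.7% and 4.77%. Sstr1, a somatostatin receptor, was at 24.2 CPM (SD 9.03) in Sst cells and 0.402 (SD 0.421) in Pvalb cells. Crhr2, a receptor of urocortins, was at 20.7, 13.7, 5.24 and 17.2 CPM and had no read in Pvalb cells. By the floor of 3 reads it was at least 192-fold higher, and it reached 10 CPM in 16 of 91 Sst cells (17.6%). Htr2c, a serotonin receptor, was at 0.702 CPM (SD 0.655) in Sst and 9.82 (SD 3.35) in Pvalb cells, 12 of 76 of which reached 10 CPM. Tacr3, the neurokinin B receptor, was at 10.9, 20.3, 22.6 and 15.1 CPM in Pvalb cells and 0.241, 0, 0.0785 and 10.4 in Sst cells, so that MouseID-498750 alone held most of its Sst signal. It reached 10 CPM in 16 of 76 Pvalb cells.

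Calcium-binding protein genes had 4 of 15 called, all higher in Sst cells (against 5.7% of all genes tested), with a median of 0.19. Besides Calb2 these were Calb1, Necab2 and Hpcal4, a visinin-like calcium sensor at 221 CPM (SD 18.2) and 44.8 (SD 19.3). Under the average of logged cell values 2 others were called in the Pvalb direction. The list leaves out Pvalb itself, which chose the cells. Without the limit on size, 8 members were higher in Sst and 4 in Pvalb cells at a limma adjusted p under 0.05. The shares over all genes tested were 13% and 14.2%. Perineuronal net genes had 4 of 7 called, all higher in Pvalb cells (against 4.77% of all genes tested), with a median of -2.15. Hapln1, a link protein that anchors the net to hyaluronan, was at 34.1 CPM (SD 6.46) in Pvalb cells and 5.49 (SD 2.99) in Sst cells. Adamts15, a protease of the family that cuts net proteoglycans, was at 25.9 CPM (SD 6.73) and 0.824 (SD 1.53). Acan, the aggrecan core protein of the net, was below the filter but reached 10 CPM in 17 of 76 Pvalb cells and in none of the Sst cells.

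Most mitochondrial energy genes were somewhat higher in Pvalb cells. Of 23 tested, 3 were called (5 on logged cell values), all higher in Pvalb cells, against 4.77% of all genes tested. They were Cox6a2, the creatine kinase gene Ckb and Esrrg, a nuclear receptor that promotes oxidative metabolism, at 149 CPM (SD 18.3) and 22 (SD 7.74). Without the limit on size, 22 of the 23 were higher in Pvalb cells at an adjusted p under 0.05, against 14.2% of all genes in that direction (13% in the other), and the list's median was -0.539. Ckmt1, a mitochondrial creatine kinase, was the 1 member higher in Sst cells (0.25 on the log2 scale, adjusted p = 0.0257). The count of 22 was the same on all 3 other scales tried, which were totals without Sst and Pvalb, logged cell values and voom on recovered reads.

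Among 22 interneuron transcription factors, 6 were called higher in Sst cells and 3 in Pvalb cells (against 5.7% and 4.77% of all genes tested). Their median was 0.452. Nr2f2, an orphan nuclear receptor, was at 46.9, 26.3, 22 and 8.92 CPM in Sst cells with no read in Pvalb cells. By the floor of 3 reads it was at least 352-fold higher. It reached 10 CPM in 22 of 91 Sst cells (24.2%), and in 8% of those of MouseID-498750. Npas1, a bHLH-PAS factor, was at 79.2 CPM (SD 21.1) and 2.92 (SD 1.35). In the Pvalb direction, Rora, a retinoid-related orphan receptor, was at 316 CPM (SD 45.6) and 88.0 (SD 29.99), and Eya4, a transcriptional coactivator, at 55.1 (SD 16.1) and 16.7 (SD 4.57).

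Immediate early genes, which neuronal activity and tissue dissociation both induce, had 3 of 9 called, in both directions (against 10.5% of all genes tested). Their median of 0.379 turned to -0.396 on logged cell values. With Sst and Pvalb left out of the totals, 2 were called higher in Sst cells and 1 in Pvalb cells, in place of 1 and 2. Egr1 was at 232, 157, 52.8 and 128 CPM in Sst cells and 30.4, 40.7, 12 and 43.1 in Pvalb cells (log2 difference 2.10, SE 0.19, adjusted p = 3.68e-06). Mouse MouseID-497550 was lowest in both sets. Dusp1 and Ier2 were higher in Pvalb cells by 1.03 and 1.004 on the log2 scale, just at the limit on size. Neither was called without MouseID-498750 (-0.90 for both, adjusted p = 0.00607 and 0.073). Dusp1 was also not called without MouseID-492045 (-0.93), nor Ier2 without MouseID-497550 (-0.88).

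Of 12 interferon response genes 4 passed the filter, and 2 of these were called, both higher in Sst cells (against 5.7% of all genes tested). Ifit1, an interferon-induced RNA-binding protein, was at 29.7, 27.4, 24.9 and 47.8 CPM in Sst cells and 0.8291, 0, 0 and 0 in Pvalb cells. It reached 10 CPM in 37 of 91 Sst cells and 1 of 76 Pvalb cells. Ifit3, of the same family, was at 72.6 CPM (SD 25) and 5.36 (SD 2.87). Ifit3 has a near-identical copy, Ifit3b, with which the counting could have split its reads.

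Sst cells carried markers of several of their subtypes. At a threshold of 10 CPM, Pdyn was found in 62 of 91 Sst cells (68.1%), between 62.5% and 80% of the cells of a mouse. It was in 0 of 76 Pvalb cells, which allows a share of up to 3.95%. That limit covers counting error of pooled cells only, not the spread between mice. Calb2 was in 34 Sst cells (37.4%) and Hpse in 28 (30.8%), 7 cells had both and 36 had neither. All 34 cells with Calb2 also had Cbln4, which was in 68.1% of Sst cells, and all 28 with Hpse also had Reln, which encodes the secreted protein reelin and was in 80.2%. Hpse and Penk met in 1 cell, and Hpse and Myh8 in none of the 12 cells with Myh8. Chodl, the mark of rare long-range Sst cells, was in 2 cells.

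Thinning left these shares nearly as they were. With every cell thinned to 80000 reads, 68.1% of Sst cells had a read of Pdyn, 38.5% of Calb2 and 30.8% of Hpse. No Pvalb cell had a thinned read of Pdyn or Hpse. Calb2 cells varied most between mice of the 3, from 22.7% of the Sst cells of MouseID-497550 to 45.8% of those of MouseID-468100.

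The leading Pvalb genes differed in how many Pvalb cells held them. Cox6a2 was at 10 CPM or more in 75 of 76 (98.7%), Lpl and Cck in 66 each (86.8%), Pthlh in 60 (78.9%), Tac1 in 58 (76.3%), Tcap in 52 (68.4%), Mybpc1 in 51 (67.1%), Pdlim3 in 46 (60.5%), Adamtsl5 in 43 (56.6%) and Wif1 in 36 (47.4%). At a threshold of 100 CPM the share was 93.4% for Cox6a2, 71.1% for Tac1, 32.9% for Tcap, 26.3% for Mybpc1 and 23.7% for Pthlh. Tac1, the precursor of substance P, and Pthlh were together in 44 cells, and 2 cells had neither. Vipr2, a marker of chandelier cells, was in none of the 76 Pvalb cells and Gpr149 in 1. In Sst cells Cox6a2, Lpl, Cck and Tac1 were each in 9 of 91 (9.89%).

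**Figure D4:**
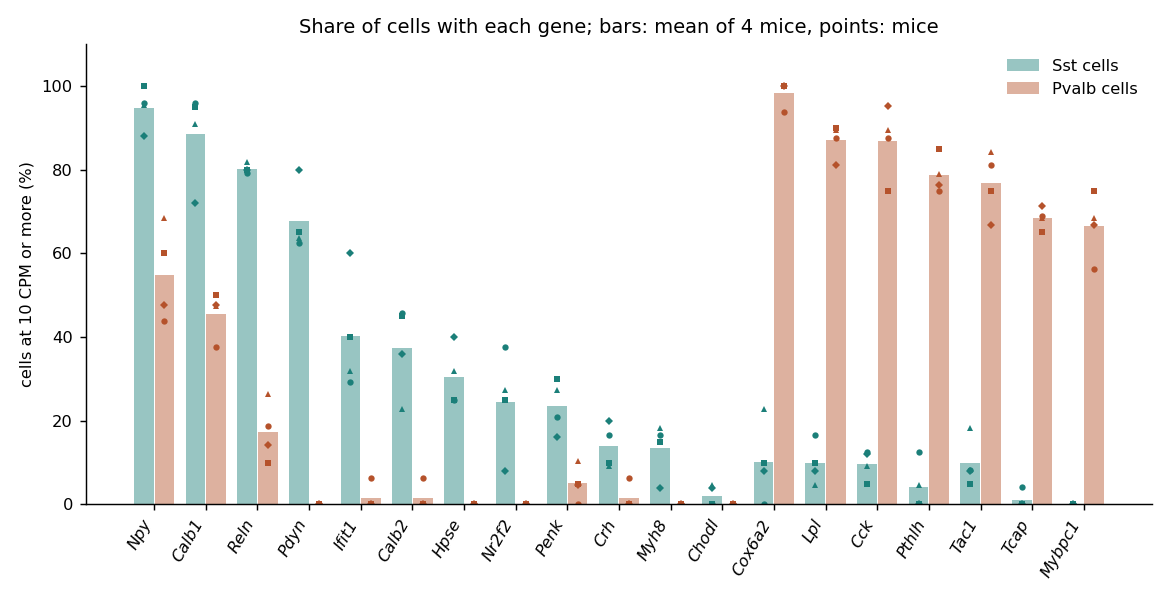
Bars are the mean over 4 mice of the percentage of cells at 10 CPM or more, and points are the mice, for genes picked after their values were seen. Npy, Calb1 and Reln were in most Sst cells, Calb2, Hpse and Penk in a minority of them, and Cox6a2 in nearly every Pvalb cell.

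The 13 cells that passed both limits lay mostly on the Sst side. The mean log2(CPM + 1) of the 12 leading Sst genes exceeded that of the 12 leading Pvalb genes in 11 of them, in 90 of 91 Sst cells, in 1 of 76 Pvalb cells and in 5 of the 5 cells that passed neither limit. Their medians of the 2 scores were 3.67 and 0.917, against 5.79 and 0.129 in Sst cells and 0.124 and 5.26 in Pvalb cells. Pvalb was at a median of 412.4 CPM in the 13 cells, near the limit, and Sst at 3033. The scores rest on genes picked by the contrast itself and describe where these cells lie.

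To see whether the differences were particular to eHGT_064h, the same limits were applied to mice of other enhancers. There were 6 such mice with at least 5 cells of each set, 2 each of eHGT_023h, eHGT_079h and hDLXI56i, with 55 Sst and 124 Pvalb cells. In that fit 762 of 10409 genes were called (7.32%), 354 higher in Sst cells (3.4%) and 408 higher in Pvalb cells (3.92%). Of the 1104 genes called in eHGT_064h, 975 were tested there. The sign was the same for 954 of them (97.8%), and 587 were called with the same sign (60.2%) and 0 with the opposite sign. Those 587 were 78.8% of the 745 genes called in the other mice and tested in eHGT_064h. J libraries of eHGT_064h and of eHGT_023h shared prefixes.

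**Figure D5:**
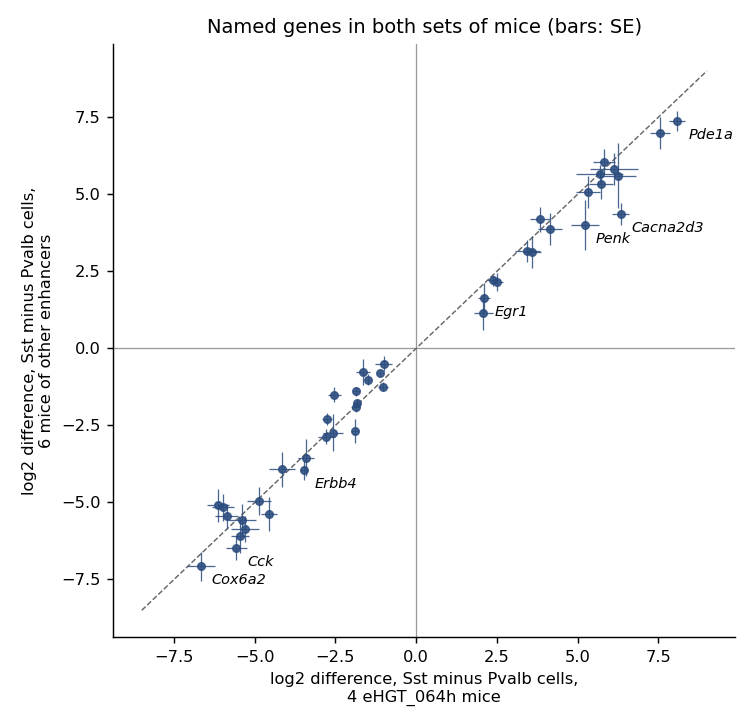
Each of 44 named genes is placed by its log2 difference, Sst minus Pvalb cells, in the 4 eHGT_064h mice (horizontal) and in the 6 other mice (vertical), with bars of 1 SE and a dashed line of equality. Named genes with no read on one side, or too low in the other mice, are left out. All 44 have the same sign in both, and Cacna2d3 lies below the line, at 6.34 and 4.34.

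The test of the difference itself, on 1 log2 difference per mouse, called 0 of 10354 genes (0%) between eHGT_064h and the other mice, and 416 (4.02%) had an unadjusted limma p under 0.05. With a pseudocount of 10 CPM, Kit, a receptor tyrosine kinase, was the 1 gene called (adjusted p = 0.0354). Kit was chosen for mention after its values were seen. It averaged 34.8 CPM (SD 12.7) in the Sst cells and 3.61 (SD 1.19) in the Pvalb cells of eHGT_064h, and 7.27 (SD 12.7) and 14 (SD 22.3) in the other mice, where 1 of 6 had the same sign.

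Among the named genes the smallest unadjusted p of that difference were 0.00244 for Cplx1, 0.00443 for Cacna2d3 and 0.0291 for Gabrd, all with adjusted p of 0.999. Cplx1 favoured Pvalb cells by 1.14 in eHGT_064h and by 0.81 in the other mice, on the log2 scale. Cacna2d3 was at 20.6 CPM in the Pvalb cells of the other mice against 5.24 here. Gabrd was at 142 CPM in the Sst cells of the other mice against 68.5 here. Erbb4 had differences of -3.47 here and -3.95 in the other mice, and Kcnc1 had -1.84 and -1.76. The 95% interval of the difference between the sets of mice ran from -0.55 to 1.51 for Erbb4. For Kcnc1 it ran from -0.47 to 0.31. Intervals that include 0 do not show that the values were alike.

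Some named genes were less even across the other mice. Fxyd6, Crhr2 and Htr2c had the same sign in 3 of the 6, Gabra2 and Kcnc4 in 4, and Nr2f2 in 2. A mouse at 0 CPM in both sets counts here as not having the sign. Nr2f2 and Crhr2 were higher in Pvalb cells in no mouse, and their remaining mice were at 0 CPM in both sets. Fxyd6, Htr2c and Kcnc4 had both such ties and a mouse with the opposite sign. Fxyd6, Crhr2, Htr2c, Kcnc4 and Nr2f2 were too low to be tested there. They are thus not among the 975 genes whose signs were compared. Gabra2, Eya4, Egr1 and Ier2 were tested there and not called (adjusted p = 0.195, 0.257, 0.0522 and 0.197). The 6 mice held as few as 5 cells of a set, so their means rest on fewer cells than those of eHGT_064h.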

How the data were processed

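The deposited table holds CPM values, 1 row per cell and 1 column per gene, which the authors scaled to 1000000 per cell. STAR and mm10 are named in the submitters' processing notes, without role or version; they name no counting program, strand setting or cell filter. Dividing a cell's deposited CPM values by the value of a single read gave whole numbers (tolerance 0.01) for 100% of entries above 0, and depth was taken from these.

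Cells were put in groups and mice from their titles. Members, gene lists and tests were chosen with earlier results of these data known. For each mouse, mean CPM was taken over the Sst and over the Pvalb cells, and log2(mean CPM + 1) was compared with limma 3.58.1 (trend and robust variance, statmod 1.5.0, R 4.3.3) with the mouse as block, which pairs the sets because both come from 1 animal. Genes needed 5 CPM in at least 4 of the 8 means (6 of 12 in the other mice), and p-values were adjusted over all genes tested. Genes such as Pdyn, Pde1a, Calb2, Fxyd6, Trpc6, Man1a, Hpse, Crhr2, Nr2f2, Cacng5, Unc13c and Ifit1 passed through their Sst means alone. Others, such as Tcap, Pdlim3 and Mybpc1, passed through their Pvalb means alone. The filter fixed the direction of such genes, which remain in the counts and medians. The values are CPM and not counts, so the main test is on the log scale; voom on the recovered reads was an alternative. Mice are the replicates and cells are not. Sst, Pvalb, Elfn1 and Syt2 were not tested in eHGT_064h.

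Named genes are the 12 of largest difference each way among called genes with at least 20 CPM on the higher side, 1 sign in all mice and no overlap, and the 2 called members of largest difference per list and direction, without those limits (Htr2c, Crhr2, Tacr3 and Kcnc4 were under 20 CPM, and the sets overlap for Kcnc4). Genes named outside this rule (Aldoc, Kit, Tac1, Acan, Cort, Etv1, Ckmt1, Akr1c18, Ppargc1a and the markers in the shares of cells) were chosen after their values were seen. Shares of cells used 10 CPM, and thinned shares 80000 reads. A count of 0 was given a limit of 3 reads or cells, which covers counting error only. Doublets were not called. Some genes that meet the naming rule are not reported here. The fit was tested on simulated data. Alternatives were other pseudocounts, filters, limits, scalings, no block, and leaving out mice or enhancers. Promoter sequences are RefSeq's on GRCm38.p6, the patch build of mm10.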

Additional observations from a re-analysis of the deposited data

Results flagged for a closer look

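In 10 of 113 groups of 4 mice (8.85%), 1 mouse stood apart from the other 3. Its gap to the nearest of them was beyond Dixon's 95% critical value for its share of the whole range. For normally distributed values, chance alone sets apart about 1 group in 20. Several of these values are CPM means near 0 that need not be so distributed, so 8.85% cannot be read as an excess. Among Sst cells, Prss23 was at 13.4 CPM in MouseID-497550 and between 2.362 and 3.525 in the others. Tacr3 was at 10.43 CPM in MouseID-498750 against at most 0.2411, and Adamts15 at 3.116 CPM in MouseID-497550 against at most 0.179. Rora was at 132.7 CPM in MouseID-492045 and between 70.15 and 77.04 in the others. Ier2 was lowest in MouseID-497550 at 5.862 CPM, with the others between 14.4 and 15.08. Syt2 was at 3.31 CPM in MouseID-492045 against at most 0.4548.

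Among Pvalb cells, Calb2 was at 1.254 CPM in MouseID-468100 against at most 0.2342. Tcap was at 122.8 CPM in MouseID-498750 and between 66.86 and 72.78 in the others. Kcnc4 was at 7.448 CPM in MouseID-468100 against at most 0.6251. Rora was lowest in MouseID-468100 at 248.1 CPM, with the others between 332.7 and 348.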

How the results depend on the processing

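With a pseudocount of 10 CPM, 600 genes were called in eHGT_064h (345 higher in Sst and 255 higher in Pvalb cells), 493 in the other mice (231 of them higher in Pvalb cells), and 1 differed between them, Kit. With logged cell values averaged, 981 genes were called higher in Pvalb cells. Among the other mice, asking for 8 cells of each set left 215 calls (112 higher in Sst and 103 in Pvalb cells), and without eHGT_023h 263 were higher in Pvalb cells. The mouse pairs the sets, and without this replicate block 1067 genes were called in place of 1104; in the other mice 666 were called. Leaving out each mouse in turn gave 1033 to 1115 calls in eHGT_064h and 0 differences from the other mice. Every other alternative stayed within 1.5 times of the main count of calls. Voom on recovered reads, added after the data were seen, called 1081 genes.

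Over 18 alternatives, the 59 tested named genes gave 1060 values, 0 of them of opposite sign and 17 not past the limits. These were 6 each for Dusp1 and Ier2, 2 for Htr2c (-0.88 with a pseudocount of 10 CPM and -0.94 with logged cell values), and 1 each for Synpr and Grin3a in the G mice and Tacr3 in the J mice (-2.47, adjusted p = 0.0721). Of the percentages of cells with a marker, 9 of 13 moved by more than the SD between mice at a threshold of 100 CPM. edgeR and DESeq2, listed for a table of raw counts, were not run. Means of low genes rest on few reads, since 1 read is 1.91 CPM in a cell of median depth.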

Other observations

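Tac1, the precursor of substance P, was found in few Sst cells. Its means were 133, 81.6, 351 and 168 CPM in the Sst cells of the 4 mice and 1069, 717, 980.0 and 825 CPM in the Pvalb cells, a log2 difference of -2.47 (SE 0.33, adjusted p = 0.0102 by limma). It reached 10 CPM in 9 of 91 Sst cells and 100 CPM in 7.69%, with a highest value of 5076.5 CPM and a median of 0. In the other mice the log2 difference was -6.75, and the unadjusted p of the difference between the sets of mice was 0.0342 (adjusted p = 0.999).

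Both enzymes of GABA synthesis differed by less than the limit on size, in opposite directions. Gad1 was at 1689 CPM (SD 233) in Sst and 3112 CPM (SD 203) in Pvalb cells, and Gad2 at 758 (SD 97.7) and 536 CPM (SD 62.7), with log2 differences of -0.89 and 0.50 (limma adjusted p = 6.61e-07 and 0.000333).

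In Sst cells Nos1, which makes nitric oxide, and Calb2 were together in 17 cells, and each was without the other in 17. All 21 cells with Penk also had Npy, which was in 94.5% of Sst cells. Both cells with Chodl had Penk.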
